A study of Mus musculus with 6 samples.

Results

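The small leucine-rich proteoglycans (SLRPs) are secreted matrix proteins whose genes were followed here in keratinocytes carrying an active form of the transcription factor NFATc1. The members were the 10 genes Fmod, Prelp, Lum, Kera, Omd, Aspn, Bgn, Dcn, Ogn and Epyc, taken where a row of the table named exactly 1 gene. All 10 were found, with 1 row each, among 19935 genes measured, and the difference is caNFATc1 minus vector control averaged over arrays of the same replicate number. The family was picked with the difference between caNFATc1 and vector control cells already known, so that difference is described for the members and not tested.

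The caNFATc1 cells were primary keratinocytes of wild-type CD1 mice, infected with a retrovirus encoding caNFATc1, a human NFATc1 kept constitutively active by mutations of its autoinhibitory domain. The control cells were the same kind of keratinocytes infected with the empty MSCV retroviral vector, so every culture was exposed to a retrovirus, and all were grown in low-calcium medium. Each group had 3 biological replicates on 1 single-colour array each, and the labels do not say whether animals were pooled or how long after infection RNA was taken. The p-values therefore measure only the spread between these samples.

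SLRPs consist of a core of leucine-rich repeats that binds collagen, and many carry sulfated sugar chains. Class I members (decorin, biglycan and asporin) and class II members (fibromodulin, lumican, keratocan, osteomodulin and PRELP) attach to collagen fibrils and influence how thick the fibrils grow, and several bind TGF-beta. In skin they are known mainly as products of dermal fibroblasts, while keratinocytes form the epithelium above.

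Every value is a log2 value relative to the median of its own row over the 6 arrays. A value shows how an array compares with the others for that gene, and no absolute level is available, so neither the labelled cell type nor the abundance of any SLRP could be checked. Centring on the median also makes the middle values of each row equal in size and opposite in sign. The replicate 1 arrays stood apart from the rest in sex-linked genes, alike in both groups. Xist, the RNA of the inactive X chromosome, was at -6.05 in the caNFATc1 array and almost as low in the vector control array. Its values lay between -0.04 and 0.18 on the other arrays. The Y-linked Eif2s3y was at 3.77 in caNFATc1 replicate 1 and 3.00 in vector control replicate 1, against -0.08 to 0.01 on the other arrays. Same-numbered arrays thus shared this sex-linked pattern. Mouse Nfatc1 differed by 0.04 ± 0.12 (SD, n = 3 pairs), which does not check the human transgene, while Rcan1, a known NFAT target, was higher by 3.38 ± 0.24.

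The stretches just upstream of the 4 members with the largest differences are shown because a transcription factor could act there. Sites elsewhere were not searched. They come from RefSeq (GRCm38.p6), cover 250 bases before the annotated start and run 5′ to 3′ along the gene. Capitals mark GGAAA or its other strand TTTCC, the core that NFAT proteins bind. Fmod lies at chr1:134037004-134037253 on the plus strand, Prelp at chr1:133921402-133921651 on the minus strand, Aspn at chr13:49544193-49544442 on the plus strand and Bgn at chrX:73483351-73483600 on the plus strand.
Fmod: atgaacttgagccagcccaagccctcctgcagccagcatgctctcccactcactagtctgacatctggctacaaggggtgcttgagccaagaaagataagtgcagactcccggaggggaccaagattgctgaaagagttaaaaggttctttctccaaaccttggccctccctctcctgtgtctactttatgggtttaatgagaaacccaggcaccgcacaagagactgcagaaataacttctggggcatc
Prelp: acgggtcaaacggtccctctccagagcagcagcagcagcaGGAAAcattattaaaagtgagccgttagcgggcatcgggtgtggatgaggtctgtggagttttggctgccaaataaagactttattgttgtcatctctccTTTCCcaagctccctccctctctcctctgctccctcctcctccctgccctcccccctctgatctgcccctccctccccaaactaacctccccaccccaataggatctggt
Aspn: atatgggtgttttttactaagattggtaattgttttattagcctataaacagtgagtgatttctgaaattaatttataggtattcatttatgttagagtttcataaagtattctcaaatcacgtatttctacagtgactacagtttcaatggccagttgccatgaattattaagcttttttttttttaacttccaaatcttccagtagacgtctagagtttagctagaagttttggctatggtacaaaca
Bgn: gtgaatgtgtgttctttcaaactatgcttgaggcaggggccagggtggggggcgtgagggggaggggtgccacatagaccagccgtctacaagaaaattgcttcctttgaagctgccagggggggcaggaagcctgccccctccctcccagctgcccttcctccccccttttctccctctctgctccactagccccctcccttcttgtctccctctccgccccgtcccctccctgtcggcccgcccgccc

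The GGAAA core was absent from these windows of Fmod, Aspn and Bgn, and Prelp had 2 matches. By gene, 5 of the 8 members in the RefSeq table had a match in any 250-base window, against 55.6% of all 32851 single windows. Besides Prelp these were Kera and Omd with 2 matches, Ogn with 1 and Epyc with 1 in each of its 2 annotated windows. The longer TGGAAA was in the windows of Kera, Omd and Ogn, and in 18.6% of all windows. TGANTCA, the site of the NFAT partner AP-1, was in none of the 8 and in 6.75% of all windows. A missing match says only that these letters are not in this window. Lum and Dcn were not analysed for upstream sequence.

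Of the 10 members, 4 were at least 2-fold higher in caNFATc1 cells (Fmod, Aspn, Prelp and Bgn), and none was 2-fold lower. Over all genes, 0.943% were at least 2-fold higher and 0.171% at least 2-fold lower. The median difference of the 10 members was 0.16, against -0.01 for all genes, and 8 members were positive, beside 47.4% of all genes. In Fmod, Aspn, Prelp and Ogn every caNFATc1 array lay above every vector control array, a pattern shown by 9.64% of all genes, and in no member did every caNFATc1 array lie below, as in 9.09% of all genes. Nothing is read from these shares, because the family was picked on this contrast. In bulk cultures, more cells of a type and more RNA per cell cannot be told apart.

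Fmod encodes fibromodulin, a class II SLRP that binds fibrillar collagen and carries keratan sulfate. Its values were 2.25, 1.96 and 3.30 in caNFATc1 replicates 1, 2 and 3, against -2.26, -1.96 and -1.96 in vector control replicates 1, 2 and 3. The groups did not overlap, and the gap between the lowest caNFATc1 array and the highest vector control array was 3.92 log2 units. The same-numbered pairs differed by 4.51, 3.92 and 5.26, a mean of 4.56 ± 0.67 (SD, n = 3 pairs) or 23.6-fold. Fmod had the largest mean difference of all 19935 genes. It ranked 1, 4 and 2 from the top in pairs 1, 2 and 3 taken alone. The vector control arrays were close together (SD 0.17), and the spread lay in the caNFATc1 arrays (SD 0.71).

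Prelp encodes PRELP, a class II SLRP that links basement membranes to the underlying connective tissue. Its values were 1.85, 0.85 and 0.19 in caNFATc1 replicates 1, 2 and 3, against -0.19, -2.12 and -1.91 in the vector control replicates. The groups did not overlap, but the gap was only 0.38, between caNFATc1 replicate 3 and vector control replicate 1. Replicate 1 was the highest array of each group. The pair differences were 2.04, 2.97 and 2.10, with a mean of 2.37 ± 0.52 (SD, n = 3 pairs) or 5.17-fold, and Prelp ranked 21 from the top. Comparing arrays of the same number gave a narrower spread than the arrays of a group showed, where the SD was 0.84 in caNFATc1 and 1.06 in vector control cells. Without vector control replicate 1 the difference of group means was 2.98.

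Aspn encodes asporin, a class I SLRP that binds collagen and TGF-beta and carries no sugar chain of the chondroitin type. Its values were 3.74, 0.38 and 2.67 in caNFATc1 replicates 1, 2 and 3, against -0.49, -0.54 and -0.38 in the vector control replicates. All caNFATc1 arrays lay above all vector control arrays, with replicate 2 by a small margin (gap 0.75). The pair differences of 4.24, 0.91 and 3.04 averaged 2.73 ± 1.68 (SD, n = 3 pairs), or 6.64-fold, and Aspn ranked 12 from the top. The difference of group means was 3.68 without caNFATc1 replicate 2 and 1.99 without caNFATc1 replicate 1. In pair 1 it was second only to Fmod, while in pair 2 it ranked 154. Its vector control arrays hardly differed (SD 0.08), against an SD of 1.72 in caNFATc1 cells.

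Bgn encodes biglycan, a class I SLRP with chondroitin or dermatan sulfate chains that can also signal through Toll-like receptors. Its values were 0.67, -0.02 and 1.26 in caNFATc1 replicates 1, 2 and 3, against -0.58, 0.02 and -0.64 in the vector control replicates. The groups overlapped, because in replicate 2 the caNFATc1 array was no higher than its control. The pair differences were 1.25, -0.04 and 1.91, with a mean of 1.04 ± 0.99 (SD, n = 3 pairs) or 2.06-fold, so the difference was about as large as its spread. Without replicate 3 of both groups it was 0.61, and without replicate 2 of both groups it was 1.58. Bgn lies on the X chromosome, but its replicate 1 arrays did not stand apart as those of Xist did.

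**Figure D1:**
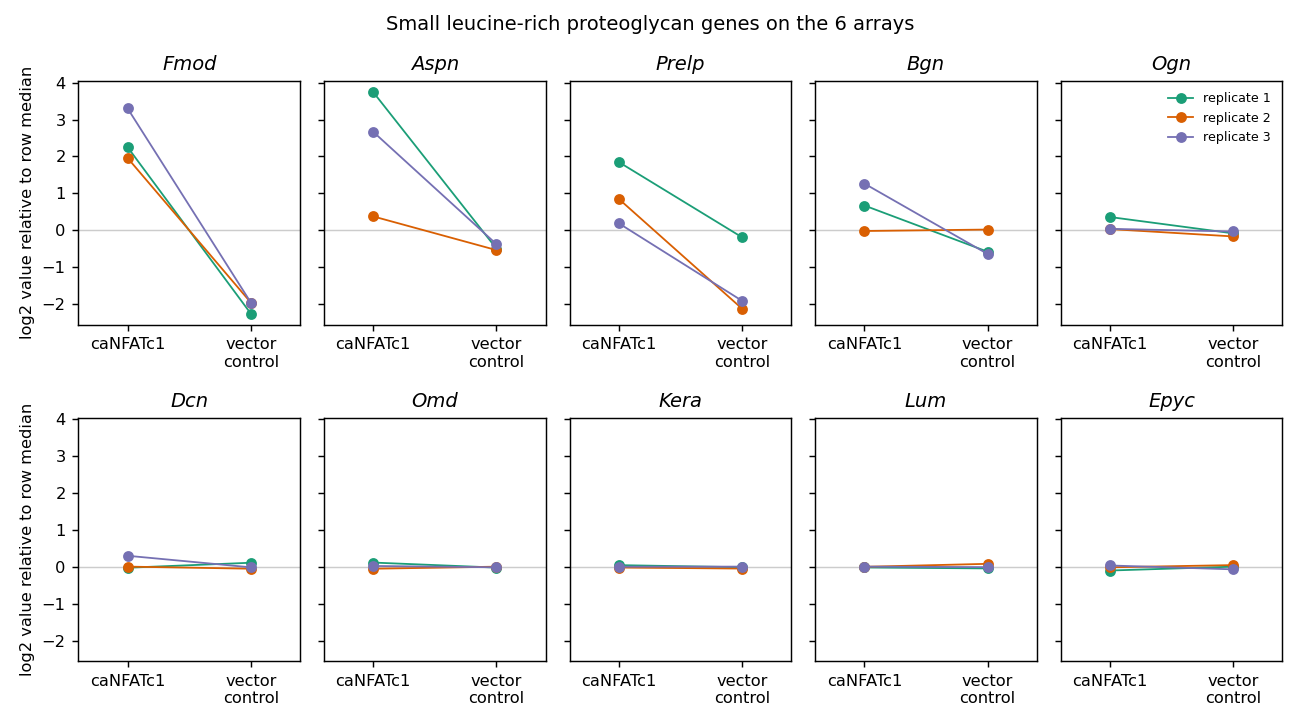
Log2 values relative to the row median (y axis) of the 10 SLRP genes on the caNFATc1 arrays (left of each panel) and the vector control arrays (right), with lines joining arrays of the same replicate number. Fmod, Aspn and Prelp separate the groups, Aspn with replicate 2 at only 0.38, Bgn has a flat line for replicate 2, and the other genes stay near 0.

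Ogn encodes osteoglycin, or mimecan, a class III SLRP first described in bone. Its values were 0.36, 0.03 and 0.04 in caNFATc1 replicates 1, 2 and 3, against -0.08, -0.17 and -0.03 in the vector control replicates. The groups were separated by only 0.07 log2 units. The pair differences of 0.44, 0.20 and 0.07 averaged 0.24 ± 0.19 (SD, n = 3 pairs), or 1.18-fold.

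The other 5 members differed little between arrays. Dcn, which encodes decorin, the best-known collagen-binding SLRP of the dermis, differed by -0.14, 0.06 and 0.31 in pairs 1, 2 and 3, with a mean of 0.08 ± 0.22 (SD, n = 3 pairs). Its highest array was caNFATc1 replicate 3 at 0.30, and the groups overlapped. Lum (lumican) and Kera (keratocan), class II SLRPs of the cornea, differed by -0.01 ± 0.06 and 0.03 ± 0.03. Omd (osteomodulin, class II) differed by 0.04 ± 0.10 and Epyc (epiphycan, class III, a cartilage SLRP) by -0.02 ± 0.11. In all 5 the groups overlapped, and the pair differences ran from -0.14 to 0.31. Their values ranged over 0.09 to 0.35 log2 units across the 6 arrays, while the median range of all genes was 0.34. Kera varied less than all but 3.69% of genes and Lum less than all but 8.34%. Row-centred values do not show whether such a row is dim or steadily bright.

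Large and small differences occurred within the same class. Class I ran from 0.08 (Dcn) to 2.73 (Aspn), class II from -0.01 (Lum) to 4.56 (Fmod), and class III from -0.02 (Epyc) to 0.24 (Ogn). The members also differed in which pair was largest. Fmod and Bgn were largest in pair 3, Aspn in pair 1 and Prelp in pair 2, the pair in which Fmod, Aspn and Bgn were smallest.

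**Figure D2:**
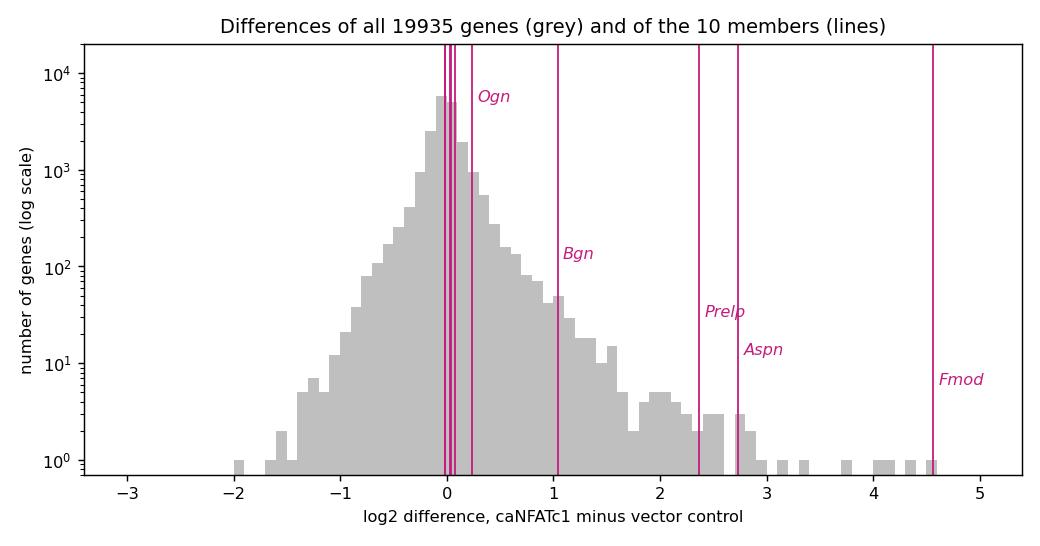
Number of genes (y axis, log scale) by log2 difference, caNFATc1 minus vector control (x axis), for all 19935 genes in grey, with the 10 members as lines. Fmod is at the right end at 4.56, Aspn at 2.73, Prelp at 2.37 and Bgn at 1.04, and the other 6 fall within the central mass.

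All members but Bgn lie beside another member in the genome, and large and small differences stood side by side in the chromosome 13 run. Prelp and Fmod are neighbours on chromosome 1, and both were higher in caNFATc1 cells. Optc (opticin, an SLRP of the eye), the next measured gene beside Prelp, differed by 0.05 ± 0.22 (SD, n = 3 pairs), and Btg2, the next beside Fmod, by -0.00 ± 0.35. On chromosome 13, Aspn is followed by Omd and Ogn, which differed by 0.04 and 0.24, against 2.73 for Aspn. Ecm2, an SLRP-like gene on the other side of Aspn, differed by 0.64 ± 0.46, with 0.99, 0.12 and 0.81 in pairs 1, 2 and 3. Like Aspn, it was smallest in pair 2. Its limma adjusted p was 0.302, and 0.0910 with the replicate number as a block. The run of Dcn, Lum, Kera and Epyc on chromosome 10 held no difference beyond 0.08.

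Over all genes, limma at an adjusted p under 0.05 called 0.206% of genes higher and 0.01% lower without the replicate block, and 3.73% and 2.38% with it (6.11% in either direction). The 3 nearest measured genes on each side of each run gave 24 neighbours, with a median difference of -0.01. Among them Eea1, an early endosome tether on chromosome 10, rose by 0.66 ± 0.06 (SE, limma adjusted p = 0.0328). That call was lost when any array was left out (adjusted p from 0.0646 to 0.168). Those fits called 0 to 83 genes over all genes, against 43 with every array, and the Eea1 difference stayed at 0.62 to 0.69. With the replicate block 2 rose, Eea1 and the antiproliferative gene Btg1 (0.52 ± 0.10, adjusted p = 0.0440), and 1 fell, the exonuclease gene Trex2 near Bgn (-0.56 ± 0.09, 0.0313). Eea1 still passed the block fit whichever pair was left out, whereas Btg1 and Trex2 passed only without pair 3 and did not pass with a random block (0.0583 and 0.652). Trex2 turned to 0.11 without vector control replicate 2 and stood at -1.19 without caNFATc1 replicate 2. Its same-numbered pairs differed by -0.70, -0.67 and -0.33.

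**Figure D3:**
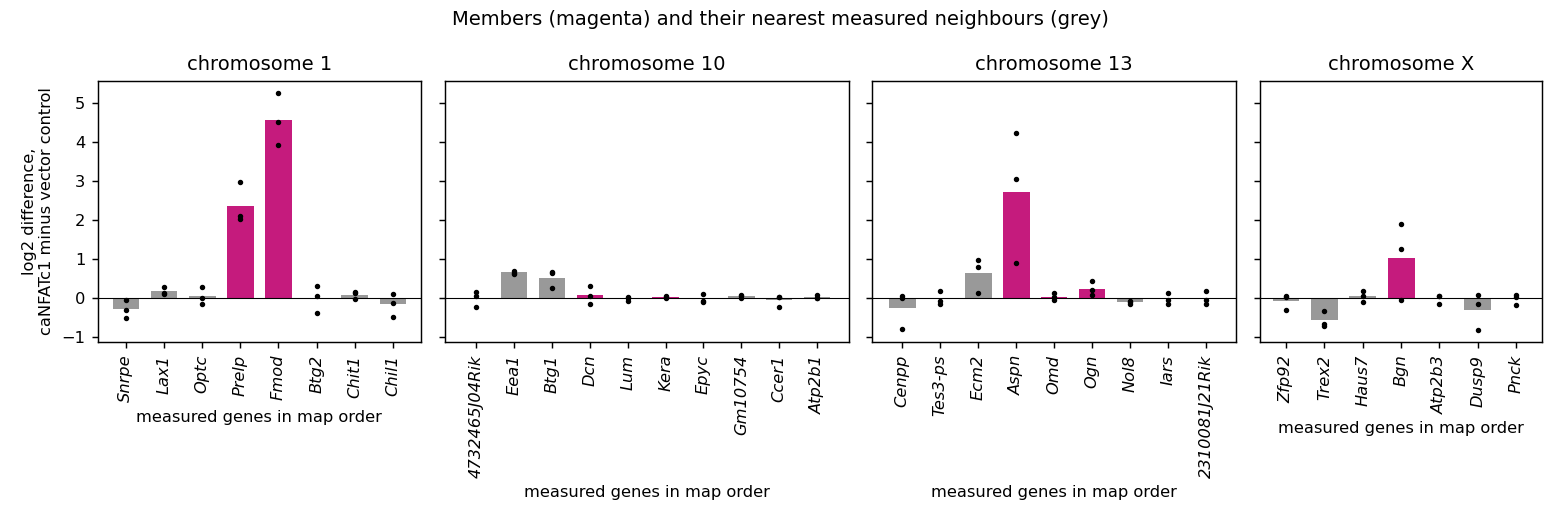
Log2 difference, caNFATc1 minus vector control (y axis), of the members (magenta bars) and their 3 nearest measured genes on each side (grey bars) in map order, with dots for the 3 same-numbered pairs. High bars for Fmod and Prelp stand side by side, and Aspn (2.73) stands beside Omd (0.04) and Ecm2 (0.64).

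The other genes of the SLRP pathway were taken from lists by role, written with earlier results of these data known, and tested in the fit over all genes. Over all genes 47.4% of differences were positive, the share to set beside the sign counts below. SLRP-like genes outside the 10 had a median difference of -0.11, and limma called 0 of 11, with 3 reaching an unadjusted p under 0.05. The share of all genes under that unadjusted p was not counted, so nothing is read from such counts, here or in later lists. With the replicate block limma called 1 of 11 (9.09%, beside 6.11% of all genes called). It was Podn (podocan, which binds collagen), higher by 1.16 ± 0.14 (SE, adjusted p = 0.0149). Its differences were 0.76, 1.31 and 1.42 in pairs 1, 2 and 3. Podn passed whichever pair was left out, but not with the replicate number as a random block (adjusted p = 0.0636). There 0 of 11 were called, beside 433 of all 19935 genes.

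Enzymes that build the chondroitin and dermatan sulfate chains of class I SLRPs had a median of 0.11, with 19 of 27 positive. Limma called 0 of 27, with 7 reaching an unadjusted p under 0.05, and with the replicate block 4 rose and 1 fell. Xylt1, a xylosyltransferase that attaches the first sugar of the chain, rose by 0.80 ± 0.12 (SE, adjusted p = 0.0278 with the block). Its values were 0.85, 0.37 and 0.25 in caNFATc1 replicates 1, 2 and 3, against -0.32, -0.25 and -0.37 in the vector control replicates, with no overlap. The related Xylt2 (0.40 ± 0.08, 0.0440), the sulfotransferase gene Chst12 (0.41 ± 0.07, 0.0290) and the sulfate donor synthase gene Papss1 (0.50 ± 0.08, 0.0339) also rose with the block. The chain-polymerising Chsy1 fell by 0.33 ± 0.06 (0.0457). Of these 5, only Xylt1 passed with a random block (0.0458), where the adjusted p of the others ran from 0.114 (Papss1) to 0.259 (Chst12). Likewise only Xylt1 passed in the block fit whichever pair was left out. The list then gave 2, 2 and 1 calls without pairs 1, 2 and 3, beside 711, 743 and 1086 over all genes. Chst12 differed by 0.21 without caNFATc1 replicate 3, and Chsy1 by -0.18 without caNFATc1 replicate 2.

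Enzymes of keratan sulfate, the chain of fibromodulin, had 0 of 13 called with or without the block, with 6 and 3 reaching an unadjusted p under 0.05 by limma. The nearest were the fucosyltransferase gene Fut8 (0.30 ± 0.06, adjusted p = 0.0551 with the block) and the chain-extending B3gnt2 (0.42 ± 0.10, 0.0714).

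Collagen fibril proteins and their processing enzymes had a median of 0.05, with 24 of 38 positive. Without the block 1 rose, the collagen cross-linking enzyme gene Loxl3 (2.96 ± 0.17, SE, limma adjusted p = 0.0113). That call was lost without caNFATc1 replicate 3 (0.0683), vector control replicate 2 (0.0622) or vector control replicate 3 (0.0888). In the same order, those fits called 2, 2 and 0 genes over all genes. With the replicate block 10 of 38 rose and 0 fell, beside 3.73% and 2.38% of all genes. They included the fibrillar collagen gene Col5a2 (2.05 ± 0.19, 0.0086), the cross-linking and hydroxylating enzyme genes Lox (0.84 ± 0.07, 0.0060) and Plod2 (1.59 ± 0.15, 0.0086), and Col6a1 and Col6a2 of beaded filaments (0.73 ± 0.10 and 0.51 ± 0.07). Col5a2, a component of the fibrils that fibromodulin binds, had values of 1.37, 0.74 and 1.78 in caNFATc1 replicates 1, 2 and 3, against -0.74, -0.75 and -0.76 in vector control cells. The list gave 10, 7 and 10 calls without pairs 1, 2 and 3, beside 711, 743 and 1086 over all genes. Col6a2 did not pass without pair 2 (0.0663). With a random block 4 of 38 were called, beside 433 of all 19935 genes. Lox (0.120), Plod2 (0.181) and Col6a2 (0.0646) were not among the 4. Plod2 differed by 0.89 without vector control replicate 1, and its same-numbered pairs by 1.99, 1.20 and 1.60.

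Growth factors and receptors that SLRPs bind had a median of 0.12, with 19 of 25 positive, and limma called 0 without the block (5 reaching an unadjusted p under 0.05). With the block 3 rose and 0 fell. Tgfb1, the growth factor bound by decorin, biglycan and fibromodulin, rose by 0.61 ± 0.07 (SE, adjusted p = 0.0132), its receptor gene Tgfbr1 by 0.52 ± 0.09 (0.0319) and the integrin gene Itgb1 by 0.65 ± 0.08 (0.0180). Tgfbr1 did not pass without pair 1 (0.0522), without pair 2 (0.0548) or with a random block (0.0552).

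Among proteases that cleave SLRPs and their inhibitors, 16 of 20 were negative and the median was -0.06, with 0 called and 0 reaching an unadjusted p under 0.05 without the block. With it 2 fell, the inhibitor gene Timp1 (-0.43 ± 0.07, SE, adjusted p = 0.0278) and the aggrecanase gene Adamts5 (-0.43 ± 0.08, 0.0455). Timp1 passed only without pair 3 and Adamts5 only without pair 1 when a pair was left out, and neither passed with a random block (0.392 and 0.266). Without single arrays Timp1 ran from -0.66 to -0.18, nearest 0 without caNFATc1 replicate 1, and Adamts5 from -0.62 to -0.25, nearest 0 without vector control replicate 3. Same-numbered pairs differed by -0.49, -0.43 and -0.36 for Timp1 and by -0.27, -0.60 and -0.41 for Adamts5. Other proteoglycans had a median of -0.00 and 0 of 30 called without the block (3 reaching an unadjusted p under 0.05). With it 2 of 30 rose (6.67%, near the 6.11% of all genes called). They were the hyaluronan receptor gene Cd44 (1.54 ± 0.12, 0.0060) and the syndecan gene Sdc4 (0.90 ± 0.07, 0.0060). Both still passed whichever pair was left out.

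**Figure D4:**
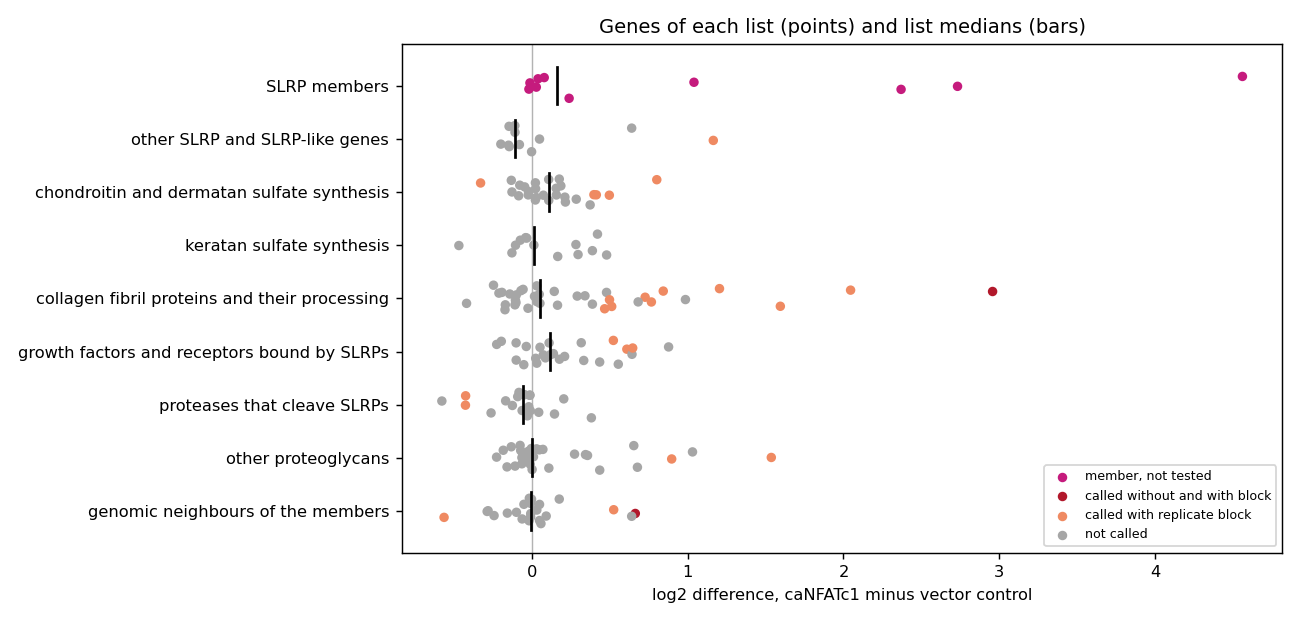
Log2 difference, caNFATc1 minus vector control (x axis), of each gene (point) in the SLRP members and the 8 other lists, with black bars for list medians and colours for the limma call. Points beyond 2 outside the members are Loxl3 (2.96) and Col5a2 (2.05), and the list medians lie between -0.11 and 0.16.

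Markers of cells other than keratinocytes were set beside these values, because SLRPs are typical of connective tissue. Of 16 fibroblast markers 9 were positive, beside 47.4% of all genes, and the median was 0.09. With the replicate block 2 rose (12.5%, beside 6.11% of all genes called), Col3a1 (1.20 ± 0.19, SE, limma adjusted p = 0.0296) and Prrx1 (0.43 ± 0.08, 0.0376). Col3a1 did not pass without pair 1 (0.0862), and Prrx1 failed whichever pair was left out. Col3a1 is also among the 10 called collagen fibril genes. The mean of the 16 row-centred values was -0.14, 0.05 and 0.42 in caNFATc1 replicates 1, 2 and 3, against -0.16, -0.05 and -0.07 in the vector control replicates. The fibroblast mean was thus highest in caNFATc1 replicate 3, where Fmod, Bgn and Dcn also had their highest values, while Aspn and Prelp were highest in caNFATc1 replicate 1. Its part in the SLRP differences was not tested, and absolute levels that would show whether defining markers are at background are not in row-centred values.

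Among tendon and cartilage markers limma called 0 of 12 with or without the block (4 and 1 reaching an unadjusted p under 0.05), with the cartilage proteoglycan gene Acan at 1.03 ± 0.22 (SE, adjusted p = 0.0535 with the block) and Sox9 at -0.41 ± 0.12 (0.119). Melanocyte, immune and endothelial markers had 0 of 8, 0 of 10 and 0 of 6 called in either limma fit, and 0 reaching an unadjusted p under 0.05. The genes of lowest p there were Mitf (0.15), Sox10 (-0.15), Tyrobp (-0.17), Cd3e (-0.20), Cldn5 (-0.14) and Cdh5 (-0.10). Of 12 basal keratinocyte markers 5 were positive and 7 negative, with a median difference of -0.01. With the block 1 rose (8.33%, beside 6.11% of all genes called). It was Trp63, the transcription factor of basal cells (0.42 ± 0.08, 0.0444). That call was lost whichever pair was left out and with a random block (0.127). Krt15 differed by -0.58 ± 0.18 (0.132), and by 0.022 without caNFATc1 replicate 2. Its same-numbered pairs differed by -0.58, -0.09 and -1.08.

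Genes whose pattern over the 6 arrays was most like that of Fmod were ranked among 1638 genes that ranged over at least 1 log2 unit. Predicted genes and clone names (Gm followed by digits, or ending in Rik) were left out before ranking. The closest were Cnnm2 (Pearson r = 0.996), linked to magnesium transport, Fndc3b (0.992), the nucleobase transporter gene Slc43a3 (0.991), the export receptor gene Xpo6 (0.991) and the kinase gene Pkn3 (0.990). The 6 points form 2 groups of 3, so any gene that separates the groups correlates, and these r values are a description. Bgn (r = 0.857), Aspn (0.837) and Prelp (0.764) ranked 254, 285 and 378 in that order, outside the 5 closest. Under quantile normalization Cnnm2 and Xpo6 remained among the 5 closest, and the others were Tspan3, Col5a2 and Thbs3.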

How the data were processed

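RNA of 3 caNFATc1 and 3 vector control cultures was hybridised to single-colour arrays as biotin-labelled cDNA, per the labels' protocols. The authors deposited 1 table of log2 values (28815 rows, 6 arrays). Per the submitters' processing notes, RMA was used and the build was mm8, and no version or filter is stated. The deposited values have a median of 0 in every row, so levels are lost. They ran from -6.05 to 4.03, and base 2 was taken from RMA. The number of arrays limits precision.

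Rows were named through the platform annotation (21780 with 1 symbol, 1605 with several, 5430 unnamed), and the mean of a gene's rows gave 19935 genes. No member shared a row with another gene. Limma (3.58.1, R 4.3.3, lmFit, eBayes, 2-sided, Benjamini-Hochberg adjusted p under 0.05) was fitted over all genes with group as the only term. That fit ignores the replicate numbers, so 0 calls in it do not show a list to be unchanged. A test on simulated data was run first, and its outcome is not given here. Errors marked SE are limma's. Differences are caNFATc1 minus vector control.

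Once group means were removed, arrays sharing a number correlated over genes at 0.71, 0.61 and 0.57, against -0.60 to 0.18 for other pairings. The same-numbered values exceeded 0.1, but so did the 0.18 of caNFATc1 replicate 3 with vector control replicate 2. Deviations within a group sum to 0, so high values for some pairings lower the others. The numbers were taken as pairs because each array correlated most with its own number in the other group. The labels name no shared culture. A fit that adds the number as a block, its values marked "with the block", is printed where it changes a call, and calls made only there rest on that pairing.

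The members, lists and naming rule were chosen with earlier results of these data known. Named were all members, up to 6 called genes per list and direction (either fit, lowest block p) or else the 2 with the lowest p, 2 per marker list, and the 5 genes most correlated with Fmod. Optc, Btg2 and Ecm2 were named for their position beside members. Listed genes without a row of their own, such as Fbn1, Adamts2, Loxl2, Chst6 and Tsku, were not analysed here. Alternatives are under the closing section.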

Additional observations from a re-analysis of the deposited data

How the results depend on the processing

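When arrays or pairs were left out, Fmod ran from 4.16 to 4.88, Aspn from 1.98 to 3.68, Prelp from 1.93 to 2.98 and Bgn from 0.61 to 1.58. Member differences moved by less than the SD of their pairs, except Prelp without vector control replicate 1. Leaving out 1 of 3 pairs cannot move a mean beyond that SD, so this is no check of stability. The block fits leave a difference unchanged by design, as does choosing a row for members with 1 row each. The median of the 10 members lay between 0.12 and 0.21 when arrays or pairs were left out. Counts depended on the pairing. With the replicate block, a fixed term, limma called 1219 genes in place of 43, and 1 SLRP-like gene, 5 chondroitin and dermatan sulfate genes, 10 collagen fibril genes, 3 growth factors and receptors, 2 proteases or inhibitors, 2 other proteoglycans, 3 neighbours and 2 markers of other cell types. With a random replicate block (estimated correlation 0.313) the counts were 433 over all genes, 0 for SLRP-like genes, proteases and keratan sulfate, 1 for chondroitin and dermatan sulfate, 4 for collagen fibrils, 2 for growth factors and receptors, 2 for other proteoglycans, 1 for neighbours and 1 for markers. Quantile normalization gave 145 over all genes, 2 for collagen fibrils and 2 for other proteoglycans, and 2 of the 5 genes most like Fmod. Leaving out arrays without the block gave 0 to 83 calls over all genes, 0 to 3 for collagen fibrils, 0 to 2 for other proteoglycans and 0 to 1 for the SLRP-like, neighbour and marker lists. With the replicate block, leaving out pairs 1, 2 and 3 gave 711, 743 and 1086 over all genes, 1, 2 and 1 for SLRP-like genes, 2, 2 and 1 for chondroitin and dermatan sulfate, 10, 7 and 10 for collagen fibrils, 3, 5 and 3 for growth factors and receptors, 2, 1 and 1 for proteases, 4, 3 and 3 for other proteoglycans, 1, 2 and 3 for neighbours and 1, 1 and 2 for markers. Keratan sulfate gave 1 without pair 1. Without single arrays, Krt15 ran from -1.43 to 0.022 and Trex2 from -1.19 to 0.11. They turned positive without caNFATc1 replicate 2 (Krt15) and vector control replicate 2 (Trex2), where the pairing was broken. Replicate 2 stood apart in both groups, at -1.81 (caNFATc1) and -1.72 (vector control) for Krt15 and 1.36 and 2.03 for Trex2. All same-numbered pair differences of both genes were negative, and the cause was not tested. Taking the row with the highest mean or centring arrays on their median changed no count by over 1.5 times. The planned filter on dim genes was not run, because row-centred values hold no level.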
